A study of Mus musculus with 4 samples.

Results

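The respiratory chain genes described here are 34 structural subunits of the 5 complexes of oxidative phosphorylation, 21 of them carried on nuclear chromosomes and 13 on the mitochondrial genome, among 32285 genes counted in each library. The rule lists them by name and uses no measured value, though the list was chosen with earlier results of these data known. The nuclear genes are a selection from each complex. The mitochondrial genes are all the protein-coding genes of that genome (their symbols start with mt-). The samples were single-cell RNA-sequencing libraries of mouse small intestinal epithelium, sorted as live cells that carried the epithelial surface protein EPCAM and lacked the leukocyte protein CD45. One library pooled 3 mice labelled WT, with no further allele named, and the other pooled 3 mice of the genotype VilCreIfnlr1fl/fl (called KO here), in which the Villin promoter drives Cre recombinase in gut epithelium and Ifnlr1, which encodes a chain of the interferon lambda receptor, is floxed. All 6 mice received 11 Gy of gamma radiation under ketamine and xylazine sedation, with the head, thorax and upper extremities shielded by lead. No unirradiated group is analysed here. The labels give the collection time as 96 hours in one place and 3 days in another. Strain and age were not given in the sources used here.

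Complex I oxidises NADH and complex II oxidises succinate, complex III passes electrons from ubiquinol to cytochrome c, complex IV passes them to oxygen, and complex V, the ATP synthase, uses the proton gradient built by complexes I, III and IV. Complexes I, III, IV and V mix subunits of both genomes, whereas complex II is wholly nuclear-encoded. Mitochondrial mRNAs are cut from long transcripts of the circular genome inside the organelle, while nuclear subunits are made in the cytosol and imported. Enterocytes are born in crypts, mature as they move up the villus and are shed near its tip.

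The WT library held 10453 barcodes, of which 9826 (94.0%) had at least 1000 unique molecular identifiers (UMIs, each standing for 1 captured transcript) and 500 genes, and the KO library held 7370, of which 6670 (90.5%) passed, with medians of 7132 and 8905 UMIs. Only 28 barcodes occurred in both libraries. Hashtag antibodies assigned 8856 barcodes to single mice, from 1259 to 1893 a mouse. The mice are called WT1 to WT3 and KO1 to KO3 by hashtag number, and values are listed in that order. The mice of hashtag 2, WT2 and KO2, stood apart in both genotypes. They held all the assigned barcodes of the cluster named crypt progenitor-like by its marker genes (90 and 196). Ribosomal protein genes took 103327 and 154218 nuclear CPM in them (UMIs per 1000000 UMIs of nuclear-encoded genes) against 18562 to 37865 in the other 4 mice. The targeted gene, Ifnlr1, had 30.9, 21.4 and 34.4 nuclear CPM in the WT mice against 34.0, 20.2 and 30.2 in the KO mice. These ranges overlapped, and whether the counted 3′ ends lie in the deleted part is not given in the sources used here, so this count does not check the genotype labels. Epcam was at 2375 to 3582 nuclear CPM and Ptprc, which encodes CD45, had 20 to 71 UMIs in all in each mouse. Each genotype was a single pooled library, so what belongs to genotype and what to pool cannot be told apart below.

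The mitochondrial members lie close together, which limits how reads can be assigned to them. In 2 places neighbouring genes overlap on the same strand, and the overlaps are shown in capitals here, as given in the GENCODE transcripts of GRCm38 (plus strand, 5′ to 3′). The first pair is the last 100 bases of mt-Atp8 (chrM:7766-7969) and the first 100 of mt-Atp6 (chrM:7927-8607), both subunits of complex V, which share 43 bases.
mt-Atp8 end: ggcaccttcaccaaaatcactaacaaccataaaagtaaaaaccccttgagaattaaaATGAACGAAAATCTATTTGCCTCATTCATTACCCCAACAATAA
mt-Atp6 start: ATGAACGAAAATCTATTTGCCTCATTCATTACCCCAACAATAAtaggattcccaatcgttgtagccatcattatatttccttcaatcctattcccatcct
The second pair is the end of mt-Nd4l (chrM:9877-10173) and the start of mt-Nd4 (chrM:10167-11544), both subunits of complex I, which share 7 bases.
mt-Nd4l end: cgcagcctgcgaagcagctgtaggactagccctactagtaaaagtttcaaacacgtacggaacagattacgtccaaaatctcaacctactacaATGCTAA
mt-Nd4 start: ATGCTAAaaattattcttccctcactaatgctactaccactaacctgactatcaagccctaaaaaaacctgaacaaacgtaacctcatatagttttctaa
Another complex I gene, mt-Nd3 (chrM:9459-9806), ends 70 bases before mt-Nd4l begins. Its last 100 bases are printed with the stop codon in capitals, because its share of mitochondrial UMIs is described at the end.
mt-Nd3 end: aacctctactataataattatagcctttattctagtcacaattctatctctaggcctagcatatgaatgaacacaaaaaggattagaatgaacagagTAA
On the opposite strand, mt-Nd6 shares 14 bases with mt-Nd5. Whether counting used strand is not given in the sources used here, so UMIs of these overlapping genes are uncertain, as are those of nuclear subunits that have processed pseudogenes.

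The summed level of the nuclear members was highest in the hashtag-2 mouse of each genotype. The 21 genes together took 4568, 12544 and 4648 nuclear CPM in the WT mice against 5622, 16346 and 6467 in the KO mice, with means of 7253 ± 4582 and 9478 ± 5962 (SD, n = 3 each). WT2 and KO2 were the highest of their genotypes, and the ranges of the genotypes overlapped. Mitochondrial UMIs made up 16.9%, 14.2% and 19.6% of all UMIs in the WT mice against 15.4%, 9.90% and 15.1% in the KO mice. Here WT2 and KO2 were the lowest of their genotypes, and the ranges again overlapped. There were 44.6, 13.2 and 52.3 mitochondrial UMIs for each nuclear-member UMI in the WT mice, against 32.3, 6.73 and 27.6 in the KO mice.

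Cell classes were built by clustering without the members, other subunits, ribosomal protein and mitochondrial genes, and named by marker genes. The class of absorptive enterocyte-like barcodes held 1040 to 1689 barcodes a mouse. In it the nuclear members took 4445, 12628, 4508, 5467, 17819 and 7173 nuclear CPM, and mitochondrial UMIs made up 23.8%, 20.2%, 23.8%, 20.1%, 14.2% and 21.04% of all UMIs. Different clusters hold most of this class in each library: clusters 1, 3, 6, 10 and 12 are mostly WT, and clusters 2, 4 and 5 mostly KO. In the mucus-secreting goblet-like class, with 116 to 175 barcodes a mouse, mitochondrial UMIs were only 2.86% to 4.56% of the total, and the nuclear members took 2919, 7295, 2977, 3822, 6450 and 3955 nuclear CPM. Both genomes' shares were thus lower in goblet-like than in enterocyte-like barcodes in 6 of 6 mice. Over whole libraries, goblet markers alone took 404048 (WT) and 378708 (KO) nuclear CPM of the goblet-like class, which leaves smaller shares to other genes. Its barcodes were also deeper, with medians of 25765 (WT) and 23176.5 (KO) UMIs against 7252 and 8146.5 in enterocyte-like ones. The part of either in these differences was not tested. A further cluster with goblet genes was left unnamed under a threshold set after seeing the data, and it held 5.25% of the WT and 0.238% of the KO barcodes, those without a hashtag included.

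Over whole libraries, which include barcodes without a hashtag and give 1 value per genotype and no test, the crypt progenitor-like class had the highest nuclear-member level of the named classes, 18803 nuclear CPM in WT (131 barcodes) and 19307 in KO (197 barcodes), with 7.25% and 6.35% mitochondrial UMIs. Tuft-like barcodes, a rare chemosensory class, followed with 11292 and 13370 (29 and 27 barcodes). This place rests on pooling the mice: within WT2 and KO2 alone the tuft-like level was 12474 and 16811, below the enterocyte-like level of 12628 and 17819. The crypt progenitor-like level in these mice, which held all its assigned barcodes, was 18598 and 19301. That class was also deep, with whole-library medians of 35822 (WT) and 65954 (KO) UMIs. Enterocyte-like barcodes of at least 32000 UMIs in WT2 and KO2 had higher levels than it, given below. The part of depth in this order was not tested. The lowest WT level was that of the Paneth-like class, the antimicrobial cells of the crypt base, at 3736 in WT and 4309 in KO (61 and 36 barcodes), with 2.21% and 2.30% mitochondrial UMIs. Paneth markers alone took 514248 (WT) and 479501 (KO) nuclear CPM of this class. Abundant transcripts of this kind leave smaller shares to other genes, and their part in the order of classes was not tested. The enterocyte-like class had the largest mitochondrial share of these classes, 25.4% in WT and 20.0% in KO. The order of the 2 genomes' shares over classes was therefore not the same.

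Within enterocyte-like barcodes, the deepest barcodes had a higher nuclear-member level and a smaller mitochondrial share than those of 4000 to 8000 UMIs. Barcodes with 4000 to 8000 UMIs had 2443, 3235, 3249, 2445, 2364 and 3034 nuclear CPM of the members. Barcodes with at least 32000 UMIs had 14557, 24610, 12526, 14260, 27144 and 17880, from 17, 86, 19, 38, 160 and 45 barcodes. Every mouse was higher in the deeper bin, without overlap. The shallowest barcodes, of 1000 to 2000 UMIs, numbered only 5 to 26 a mouse and did not follow this order, at 4125, 4442, 5300, 4081, 1846 and 7117. The mitochondrial share over the same bins was 28.4%, 33.4%, 28.2%, 25.7%, 26.0% and 31.2% in the shallower barcodes and 10.0%, 8.61%, 8.71%, 9.16%, 7.07% and 8.52% in the deepest. Limited to barcodes with 4000 to 16000 UMIs, a window chosen after seeing the data, the 6 mice had nuclear-member levels of 2956, 3772, 3642, 2819, 3112 and 3614. KO2 was then lower than KO3, and WT2 was close to WT3. The mitochondrial share in this window was 25.9%, 28.9%, 25.9%, 23.4%, 24.2% and 26.2%, and there were 118, 108, 95.9, 108, 103 and 98.2 mitochondrial UMIs for each nuclear-member UMI. The separation of the hashtag-2 mice was thus much smaller within the window than over all depths, and the villus, gate and enterocyte-like genotype comparisons below are given within the window as well. The part that depth plays in these levels was not tested.

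**Figure D1:**
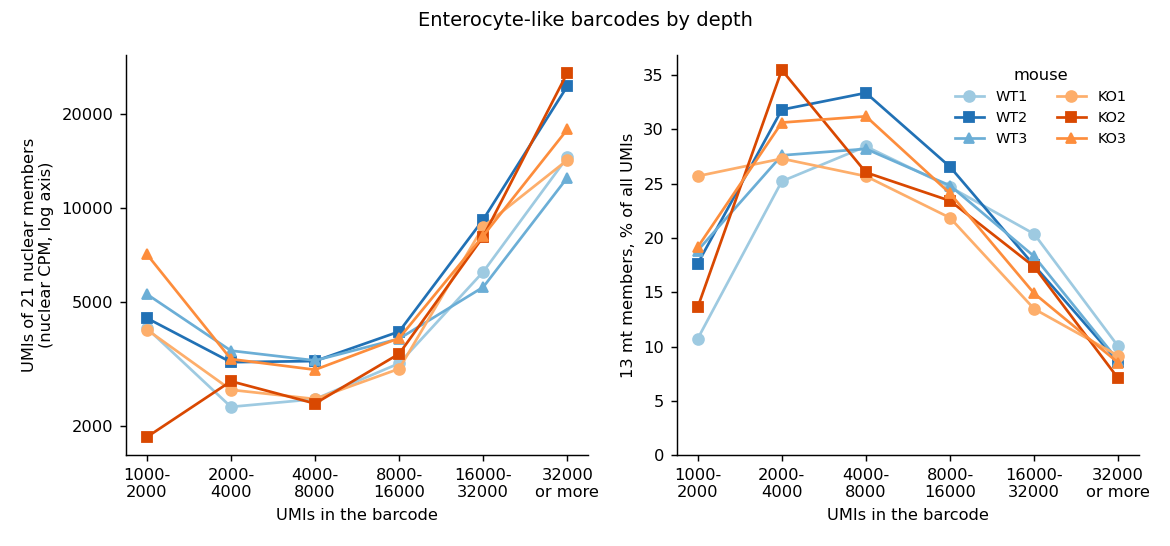
Nuclear-member level (nuclear CPM, log axis) and mitochondrial share (percent of all UMIs) of enterocyte-like barcodes by UMIs per barcode, 1 line for each mouse. In all 6 mice the nuclear level was higher at 32000 or more UMIs (12526 to 27144) than at 4000 to 8000 (2364 to 3249), while the mitochondrial share was lower (7.07% to 10.0% against 25.7% to 33.4%).

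Along the villus, all 21 nuclear members were lower in the upper than in the lower position, and all 13 mitochondrial members were higher over all depths, 12 of them past the test. Position was scored for enterocyte-like barcodes from landmark genes of the villus top and bottom, none of them a member, and the upper and the lower tercile of the score within each mouse were compared with the mouse as a block. By edgeR's quasi-likelihood test with Benjamini-Hochberg adjustment over 9048 genes (the test behind every adjusted p here, with genes called at an adjusted p under 0.05), 32.4% of the genes were called lower in the upper tercile and 29.3% higher. Against that background, 21 of 21 nuclear members were called lower, each in 6 of 6 mice, with a median log2 difference of -1.97, where the median of all tested genes was -0.04. The mitochondrial members had a median of 0.64.

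The member with the largest difference in this comparison was Atp5g1 (chr11:96068852-96075670, minus strand, GRCm38), which encodes subunit c of the ring that rotates in complex V. Its level in CPM (of all UMIs, scaled by edgeR) was 122, 901, 111, 166, 1406 and 269 in the lower tercile and 23.9, 22.1, 24.4, 28.3, 29.9 and 37.8 in the upper. The lower terciles differed widely between mice, whereas the upper terciles lay close together, and the ranges did not overlap. The log2 difference was -3.40 (SE 0.57, adjusted p = 0.0020, edgeR). Within complex V the other nuclear members ranked by this difference were Atp5c1 (gamma subunit, the central stalk) at -2.53, Atp5a1 (alpha, catalytic head) at -2.15, Atp5b (beta, which carries the catalytic sites) at -1.37 and Atp5d (delta, central stalk) at -0.73 (SE 0.18, adjusted p = 0.0084, edgeR). Members of 1 complex thus spanned most of the range of differences seen among all 21.

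Complex IV transfers electrons to oxygen, and all its nuclear members fell. Cox5a (chr9:57521274-57532426), a structural subunit of complex IV, was at 379, 1182, 310, 419, 1494 and 552 CPM in the lower tercile and 81.2, 79.1, 80.0, 75.2, 83.3 and 107 in the upper. All lower terciles were above all upper ones, with a log2 difference of -2.82 (SE 0.35, adjusted p = 0.00099, edgeR). Ndufa4, first described in complex I and now placed with complex IV, fell by 2.77 on the log2 scale (SE 0.32), Cox7a2 by 2.56, Cox6c by 2.51, Cox8a by 2.27, Cox5b by 1.97, Cox7a1 by 1.93 and Cox4i1 by 1.42. The complex II subunits Sdha (the flavoprotein) and Sdhb (the iron-sulfur subunit) fell by 1.42 and 1.35. In complex III, the core subunit Uqcrc2 fell by 2.00, the Rieske iron-sulfur protein Uqcrfs1 by 1.65 and the core subunit Uqcrc1 by 1.17. In complex I, the membrane-arm subunit Ndufb8 fell by 2.29, Ndufv1, which holds the NADH site, by 1.18, and the iron-sulfur subunit Ndufs1 by 0.66 (SE 0.20, adjusted p = 0.019, edgeR), the smallest difference among the nuclear members.

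Among mitochondrial members the largest difference was that of mt-Nd6, the complex I subunit read from the other strand. It was at 194, 104, 200, 162, 84.8 and 155 CPM in the lower tercile and 289, 235, 294, 241, 304 and 297 in the upper, higher in 6 of 6 mice without overlap (log2 difference 0.95, SE 0.18, adjusted p = 0.0033, edgeR). Next were mt-Atp8 at 0.85 and mt-Co1, the catalytic subunit of complex IV, at 0.76. The others called ranged from 0.52 for mt-Cytb, the only mitochondrial subunit of complex III, to 0.72 for mt-Nd5. mt-Nd1 was higher in 6 of 6 mice (7305, 6532, 8162, 5601, 4897 and 5807 CPM against 8072, 8276, 9124, 6216, 7194 and 7758) but was not called (log2 difference 0.30, SE 0.15, adjusted p = 0.10, edgeR). Mitochondrial UMIs made up 22.5%, 15.3%, 22.8%, 18.7%, 10.3% and 17.7% of all UMIs in the lower tercile, 24.7%, 27.5%, 24.2%, 22.0%, 21.02% and 23.3% in the middle and 24.5%, 25.2%, 24.1%, 20.0%, 22.4% and 23.9% in the upper. The share was higher in the upper than the lower tercile in all 6 mice, by most in WT2 and KO2, and in WT1, WT2, WT3 and KO1 the middle tercile was the highest.

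**Figure D2:**
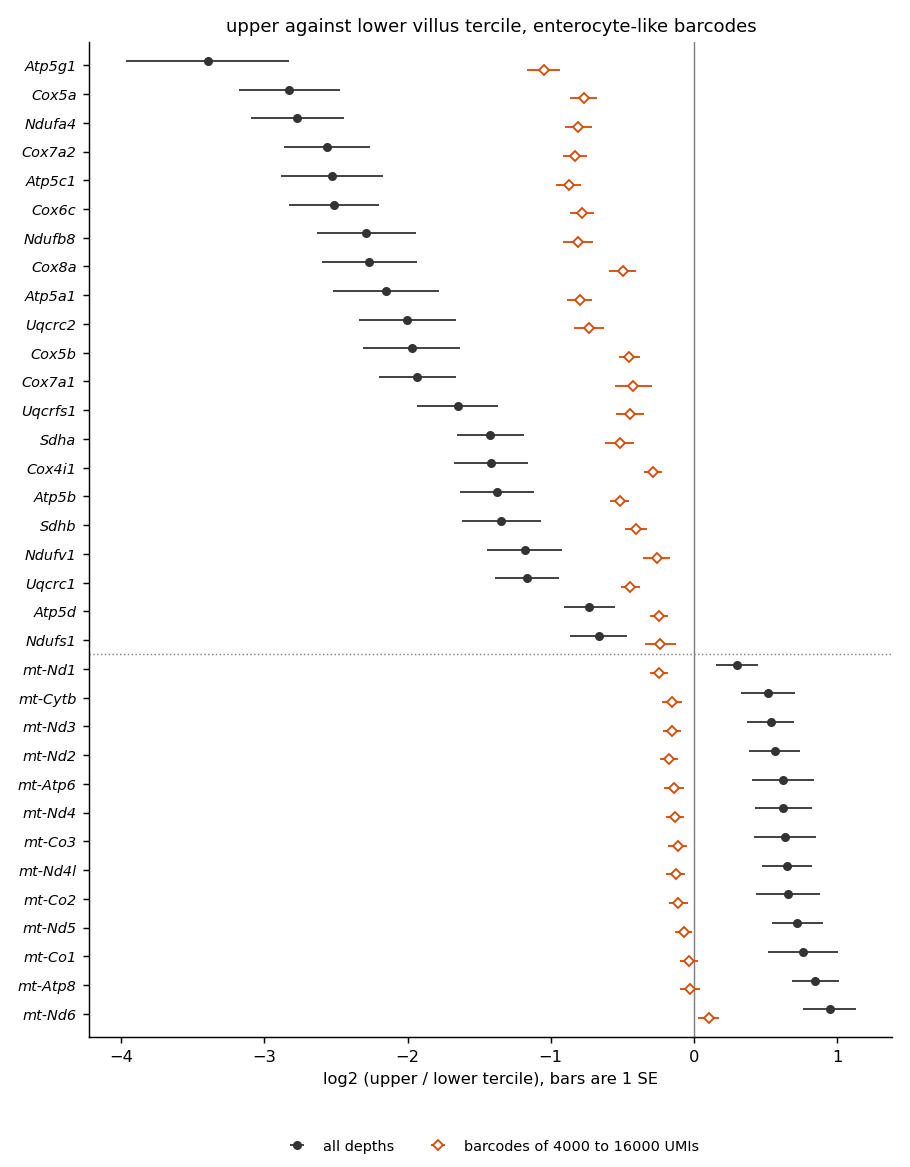
Fitted log2 difference between the upper and the lower villus tercile for each of the 34 members (bars are 1 SE), over all depths and within 4000 to 16000 UMIs. All 21 nuclear members lie below 0 in both settings, and the mitochondrial members lie above 0 over all depths and, but for mt-Nd6, below 0 within the window.

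Depth differed between the terciles as well, by most in KO2. The median barcode of the lower tercile had 9245, 11898, 9245, 9033, 26508 and 11800 UMIs, and that of the upper had 8119, 8499, 8184, 7210, 8397 and 8502. Within 4000 to 16000 UMIs, with terciles drawn anew in the window, 22.7% of 7726 genes were called lower and 24.2% higher in the upper tercile. There, 20 of the 21 nuclear members were called lower, with a smaller median of -0.52, and Ndufs1 (-0.23) was the exception. Atp5g1 was at 68.7, 95.1, 69.7, 58.8, 80.1 and 77.1 nuclear CPM in the lower tercile of the window and at 22.2, 26.9, 26.9, 35.0, 36.4 and 35.6 in the upper, again without overlap (log2 difference -1.05, SE 0.11, adjusted p = 1.1e-07, edgeR). Summed, the nuclear members went from 3924, 5321, 4866, 3372, 4138 and 4503 to 2329, 2857, 2664, 2485, 2497 and 2920 nuclear CPM, lower in 6 of 6 mice. The mitochondrial difference turned its direction in the window: the median was -0.13, 12 of the 13 members were negative, and mt-Nd1 (-0.24) and mt-Nd2 (-0.17) were called lower, with mt-Nd6 at 0.10 the only positive one.

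The nuclear members kept their direction and calls without the mice or the cluster that stood apart, though the median fall was then smaller. Without both mice of hashtag 2, 21 of 21 were called lower with a median of -1.40 (29.1% of genes called lower), and 13 of 13 mitochondrial members were called higher with a median of 0.42 (29.5% of genes called higher). Without cluster 17, which lay mostly in those mice and had 6.94 times its libraries' median depth, the counts were again 21 and 13, with medians of -1.41 and 0.36 (34.3% of genes called lower and 32.4% higher). Scaled by library totals in place of edgeR's trimmed means, the median of all genes moved from -0.04 to -0.25, the split of all calls from 2651 higher and 2932 lower to 1730 and 3686, and only 3 mitochondrial members were called. The mitochondrial count was 4 without WT2 and also 4 without KO3. Of the markers of other cell types, 3 of 8 tested crypt progenitor markers, of 15 listed, were called lower in the upper tercile, a share near that of all genes (summed levels 116 to 368 nuclear CPM in the lower and 89.8 to 114 in the upper), and 10 of 11 tested Paneth markers, of 14 listed, were called higher, where 29.3% of all genes were (295 to 989 and 696 to 1298). Of 7 tested goblet markers, of 10 listed, 5 were called higher and 0 lower (1408 to 3711 and 2775 to 3156). Of 5 tested enteroendocrine markers 1 was higher and 1 lower, and of 3 tested tuft markers 2 were higher and 1 lower. Their part in the members' differences was not tested.

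Most tested genes in several lists around the chain were lower in the upper tercile too, and these lists were chosen with earlier results of these data known. Of 59 tested nuclear subunits beyond the members, 58 were called lower and 1 higher in the upper tercile, including Uqcrb of complex III (-2.74), Ndufb4 of complex I (-2.82) and Cycs, which encodes cytochrome c (-1.27). Of 31 assembly factors tested, 28 were lower and 1 higher, with Ndufaf4, which assists complex I assembly, at -4.91, Atpaf1, for complex V, at -1.77 and Cox17, a copper chaperone for complex IV, at -1.33. Of 17 genes of the tricarboxylic acid cycle, 14 were lower and 1 higher, with Idh3a at -3.56 and Suclg1 at -2.24. Of 16 genes that replicate, transcribe or process mitochondrial RNA, 10 were lower and 2 higher. Of 15 glycolysis genes 5 were lower and 3 higher, a share of lower calls near the 32.4% of all genes, among them Eno1 at -1.15 and Hk1 at 1.03. Of the regulators of mitochondrial biogenesis, 5 were lower and 5 higher of 12, with Ppargc1a at -1.90, Ppara at -2.70 and Ppard at 0.97. Ribosomal protein genes fell as well, 72 of 81, and the nuclear-retained RNAs Malat1 and Neat1 rose by 1.84 and 1.59. Within the depth window the counts were 57 lower and 1 higher of 59 other subunits, 11 lower of 16 tricarboxylic acid cycle genes, and 1 lower and 6 higher of 15 glycolysis genes, where 22.7% of all genes were lower and 24.2% higher.

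Promoter sequences are shown for Atp5g1 and Cox5a, the members with the 2 largest falls along the villus, and for Cox7a1, chosen after its values were seen because it is described between genotypes later. They are from RefSeq on GRCm38.p6, from 250 to 50 bases before the annotated start, with the letters CCAAT, the core bound by the factor NF-Y, or their reverse complement ATTGG in capitals. Atp5g1 (chr11:96075682-96075881, minus strand) and Cox7a1 (chr7:30183921-30184120, plus strand) hold 5 and 2 matches, of which a pair overlaps in Atp5g1, and Cox5a (chr9:57520982-57521181, plus strand) holds 0.
Atp5g1 promoter: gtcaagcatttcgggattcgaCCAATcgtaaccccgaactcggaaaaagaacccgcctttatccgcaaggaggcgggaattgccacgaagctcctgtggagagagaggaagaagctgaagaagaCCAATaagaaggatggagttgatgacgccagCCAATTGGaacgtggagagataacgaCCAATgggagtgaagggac
Cox5a promoter: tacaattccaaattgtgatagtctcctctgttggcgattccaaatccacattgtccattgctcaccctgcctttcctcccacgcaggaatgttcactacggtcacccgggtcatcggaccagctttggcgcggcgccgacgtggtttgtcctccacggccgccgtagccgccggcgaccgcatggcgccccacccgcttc
Cox7a1 promoter: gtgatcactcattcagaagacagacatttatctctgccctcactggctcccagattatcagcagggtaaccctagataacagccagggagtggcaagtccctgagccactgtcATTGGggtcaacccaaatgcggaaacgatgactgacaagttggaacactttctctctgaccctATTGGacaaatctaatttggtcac
RefSeq promoters were matched for 16 of the 21 nuclear members (not Ndufs1, Uqcrc2, Cox4i1, Cox6c or Atp5a1). In 250 bases before the start, on both strands, CCAAT was present in 7 of the 16 (43.8%) and in 34.5% of all 27025 promoters: Atp5b, Atp5c1, Atp5g1, Cox7a1, Cox8a, Sdha and Sdhb. The letters GCGCA followed at once by their reverse complement TGCGC, a form of the NRF1 motif, occurred in none of the 16 and in 0.781% of all promoters. CCGGAAG, a form of the motif of GABPA, was in none of the 16 and in 7.05% of all, and AAGATGGC, of YY1, in none and in 1.59%. These are matches of letters in a window and show no binding.

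A limit on the mitochondrial share, the usual filter for damaged cells, separated barcodes with unlike nuclear-member levels. Over 25% of UMIs were mitochondrial in 4263 (43.4%) of the WT and 2642 (39.6%) of the KO barcodes, whether or not they were assigned to a mouse. Below that limit the nuclear members took 4888, 13877, 4670, 6006, 17147 and 6852 nuclear CPM, and above it 3384, 4538, 4586, 3684, 4923 and 4341. The level was lower above the limit in 6 of 6 mice, by least in WT3. Since mitochondrial UMIs define the gate, only nuclear genes were tested, relative to nuclear UMIs, with the mouse as a block. Of 11341 genes, 35.8% were called lower and 30.4% higher in barcodes over 25%. Of the 21 nuclear members, 15 were called lower and 0 higher (DESeq2 called 15 lower and 0 higher too, with 34.3% of genes lower and 31.5% higher), with a median log2 difference of -1.11 against -0.06 for all genes. Scaling by library totals moved the latter to 0.10 and left 13 members lower.

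The members were unequal. Atp5g1 was at 208, 935, 160, 231, 1337 and 287 CPM (of nuclear UMIs, scaled by edgeR) below the limit and at 42.9, 68.3, 73.3, 56.9, 105 and 75.8 above it, without overlap (log2 difference -2.36, SE 0.34, adjusted p = 0.00026, edgeR). Cox5a was next at -2.34 (SE 0.22, adjusted p = 2.5e-05, edgeR), then Ndufa4 at -2.03 and Cox8a at -1.95. The 6 members not called were Atp5b (-0.38), Ndufv1 (-0.35), Sdhb (-0.24), Ndufs1 (0.02), Uqcrc1 (0.06) and Atp5d (0.21). Atp5d was at 554, 790, 585, 505, 879 and 579 CPM below the limit and at 631, 691, 871, 620, 599 and 732 above it, which was higher in 4 mice and lower in WT2 and KO2. Without both mice of hashtag 2, 15 members were again called lower and 3 were called higher, Atp5d at 0.43, Uqcrc1 at 0.39 and Ndufs1 at 0.33, with a median of -0.67 (32.9% of genes lower, 29.1% higher). Of the other subunits, 52 of 59 were lower over all depths, as were 81 of 81 ribosomal protein genes with a median of -2.84.

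Cell class and depth both moved with the gate. All 10 goblet markers were called lower above the limit, with summed levels of 50363 to 181173 nuclear CPM below it and 3802 to 7386 above, as were 13 of 14 Paneth markers and 12 of 14 tested crypt progenitor markers, of 15 listed, with 1 higher. Among enterocyte-like barcodes alone 15 members were still called lower, with a median of -1.23 (18.2% of genes lower, 13.2% higher). The direction turned within the window. Within 4000 to 16000 UMIs the nuclear members took 2674, 3988, 3048, 2466, 2708 and 3203 nuclear CPM below the limit and 3326, 4494, 4463, 3562, 4355 and 4216 above it, higher above it in 6 of 6 mice. There 13 of 21 members were called higher (20.9% of 9390 genes) and 3 lower (20.7%), with a median of 0.28. Uqcrc1 was at 96.5, 148, 116, 79.6, 88.4 and 119 below and 161, 270, 282, 172, 211 and 243 above (log2 difference 0.93, SE 0.07, adjusted p = 2.6e-07, edgeR), higher in each mouse. Atp5d followed at 0.72, Sdhb at 0.67 and Atp5b at 0.50, while Cox7a1 (-0.56), Cox8a (-0.23) and Cox5a (-0.22) stayed lower. In the same window barcodes over the limit had fewer nuclear UMIs, with medians of 4485 to 5121 against 6793 to 8034 a mouse, so depth in nuclear UMIs was not matched there and its part was not tested.

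**Figure D3:**
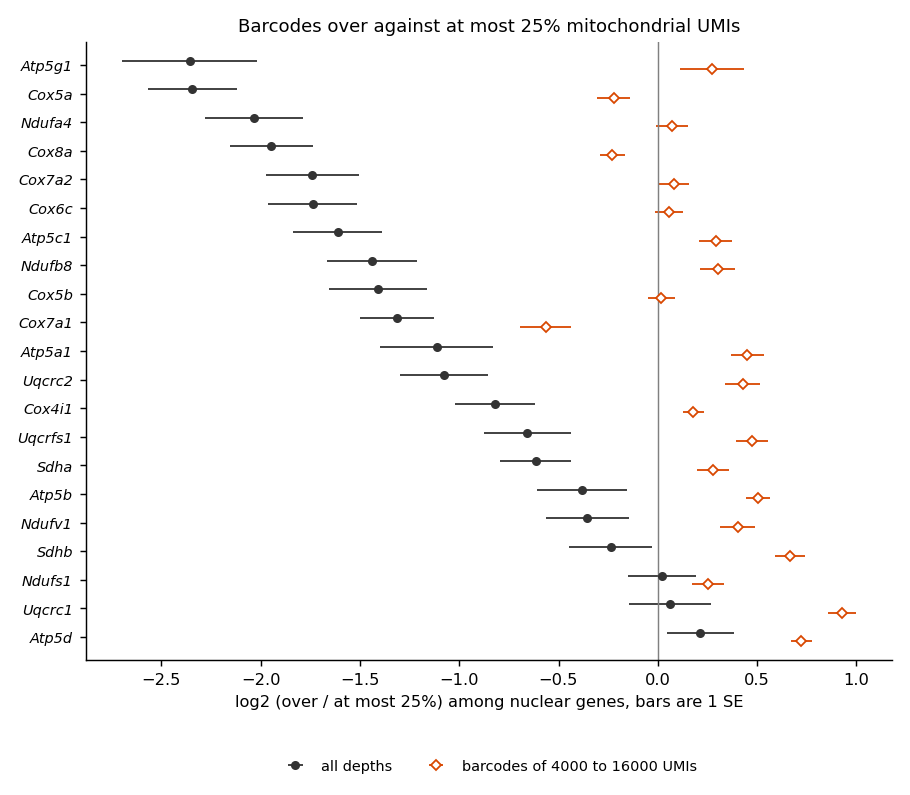
Fitted log2 difference of the 21 nuclear members between barcodes with over 25% and with at most 25% mitochondrial UMIs, relative to nuclear UMIs (bars are 1 SE), over all depths and within 4000 to 16000 UMIs. Over all depths 15 were called lower, and within the window 13 were called higher and 3 lower.

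Between genotypes, with all 6 mice and no pairing, no member passed the test over all depths. Over all barcodes 0 of 13349 genes were called by edgeR, 344 had an unadjusted p under 0.05, and DESeq2 called 56 (0.105% of genes higher in KO and 0.315% lower), none of them a member. The nuclear members had a median log2 difference, KO against WT, of 0.31, with 19 of 21 positive, and the mitochondrial members of -0.52, with 13 of 13 negative, where all genes had 0.07. Leaving out KO2 turned the nuclear median to -0.35, with 2 of 21 positive, and leaving out WT2 raised it to 0.88. No nuclear member was higher in all KO than in all WT mice (3.58% of all genes were), and 1 of 13 mitochondrial members, mt-Nd1, was lower in all KO mice (3.53% of all genes were). Scaling by library totals moved the median of all genes from 0.07 to 0.26, the nuclear median to 0.45 and the mitochondrial one to -0.30. Since no gene was called, marker calls carry no information in this fit, and levels are given instead, with crypt progenitor markers summing to 159 to 1929 nuclear CPM in WT and 196 to 2362 in KO mice, and goblet markers to 47676 to 144202 and 47312 to 97386.

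In enterocyte-like barcodes 0 of 11300 genes were called by edgeR, 737 had an unadjusted p under 0.05, and DESeq2 called 87 (0.168% of genes higher and 0.602% lower), again none of them a member. The nuclear median was 0.46 with 21 of 21 positive, and -0.32 with 2 of 21 positive without KO2. The mitochondrial median was -0.46 with 12 of 13 negative. No nuclear member had all KO mice above all WT mice (6.21% of all genes did), and 3 of 13 mitochondrial members, mt-Nd1, mt-Nd2 and mt-Atp6, had all KO mice below all WT mice (6.13% of all genes did).

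Comparing mice of the same hashtag number changed these calls. The labels state no pairing. In enterocyte-like barcodes WT2 and KO2 deviated from their group means together (correlation 0.87). Numbers 1 and 3 were not told apart as clearly, since WT3 correlated with KO3 at 0.67 and with KO1 at 0.66. The values thus do not establish a pairing for those numbers. With the number as a block, 11% of genes were called higher and 8.96% lower in KO enterocyte-like barcodes. Then 11 of 21 nuclear members were called higher, namely Cox7a1, Atp5g1, Ndufa4, Cox6c, Cox7a2, Cox8a, Atp5c1, Cox5a, Ndufb8, Atp5a1 and Sdha, and 10 of 13 mitochondrial members lower. Atp5g1 was at 68.5, 531 and 64.9 CPM in the WT mice against 95.0, 982 and 153 in the KO mice, a blocked log2 difference of 0.86 (SE 0.15, adjusted p = 0.011, edgeR). The genotypes overlapped, since WT2 lay above KO1 and KO3, and each KO mouse was above the WT mouse of its number. The smallest called difference of a nuclear member was that of Sdha at 0.39. mt-Atp6 was at 47130, 35898 and 49273 CPM against 32275, 22853 and 35698, a blocked log2 difference of -0.57 (SE 0.11, adjusted p = 0.015, edgeR), with all KO mice below all WT mice. The smallest called mitochondrial difference was that of mt-Nd1 at -0.42. The exceptions were mt-Nd3 (-0.0029), mt-Nd4l (-0.04) and mt-Nd6 (-0.24). Over all barcodes the block gave 1 member called, Cox7a1 (0.79, SE 0.11, adjusted p = 0.021, edgeR), where 2.13% of genes were higher and 3.47% lower. Without both mice of hashtag 2 and without a block, 6 nuclear members were called higher in enterocyte-like barcodes (5.13% of genes) and 5 mitochondrial members lower (6.65% of genes). Position and Paneth genes moved with the blocked calls in enterocyte-like barcodes. Of the landmark genes, 8 of 10 for the villus top were called lower and 5 of 8 tested for the villus bottom higher (1 lower) in KO. Of the Paneth markers, 8 of 14 were higher and 1 lower, with summed levels of 640, 458 and 752 nuclear CPM in WT against 1182, 775 and 1075 in KO mice, and of 11 tested crypt progenitor markers 1 was higher and 1 lower. Within the window, with the block, 2 of 10 top landmarks were lower, 1 of 8 bottom landmarks was higher and 2 lower, and 8 of 13 Paneth markers were higher. Their part in the members' differences was not tested.

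Within 4000 to 16000 UMIs and without the block, no member was called by edgeR, as over all depths (4.28% of 9903 genes were higher and 5.24% lower). Before adjustment, 8 nuclear and 8 mitochondrial members had an edgeR p under 0.05 in that fit. The percentages of genes are adjusted calls, so they are no background for this count, and no reading is drawn from it. In the same fit the nuclear median was -0.20 with 3 of 21 positive, and the mitochondrial median was -0.26 with 11 of 13 negative. With the block, 4 members were called in the window against 21 over all depths: 1 nuclear member was called higher (5.43% of genes) and 3 lower (7.04%), the latter being Cox5b of complex IV (-0.36, SE 0.10, adjusted p = 0.035, edgeR), Uqcrc1 of complex III (-0.44, SE 0.10, adjusted p = 0.018, edgeR) and Atp5b of complex V (-0.35, SE 0.08, adjusted p = 0.022, edgeR). No mitochondrial member was called. The sign of the nuclear median thus differed between all depths and the window, and it also turned over all depths without KO2. The window changes which barcodes are compared, and the part of depth was not tested.

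Cox7a1 (chr7:30184144-30186078, plus strand), the complex IV isoform best known from heart and skeletal muscle, was the exception. Over all depths of enterocyte-like barcodes it was at 24.0, 96.9 and 31.5 CPM in the WT mice against 53.9, 178 and 68.3 in the KO mice. WT2 lay above KO1 and KO3, so the genotypes overlapped, while each KO mouse was above the WT mouse of its own number. The difference was 0.97 (SE 0.67, adjusted p = 0.81, edgeR), and 1.03 with the block (SE 0.10, adjusted p = 0.0024, edgeR). Within the depth window it was at 20.9, 31.6 and 25.5 nuclear CPM in the WT mice against 38.7, 41.1 and 36.1 in the KO mice, without overlap. Over all depths 6.21% of all genes had all KO mice above all WT mice. No such share is given for the window or its terciles, and Cox7a1 was picked from 21 nuclear members. Its log2 difference in the window was 0.48 without the block (SE 0.14, adjusted p = 0.052, edgeR) and 0.48 with it (SE 0.13, adjusted p = 0.038, edgeR). In the window's upper tercile it was at 15.5, 26.9 and 16.5 in WT against 37.7, 37.0 and 34.0 in the KO mice, whereas in the lower tercile the genotypes overlapped at 30.1, 49.4 and 38.3 against 42.9, 48.8 and 48.0. In goblet-like barcodes it was at 15.4, 13.2 and 21.6 in WT against 27.8, 22.4 and 19.5 in the KO mice, which overlapped. Its broadly expressed paralog Cox7a2 had a log2 difference of -0.19 in the window, with and without the block.

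**Figure D4:**
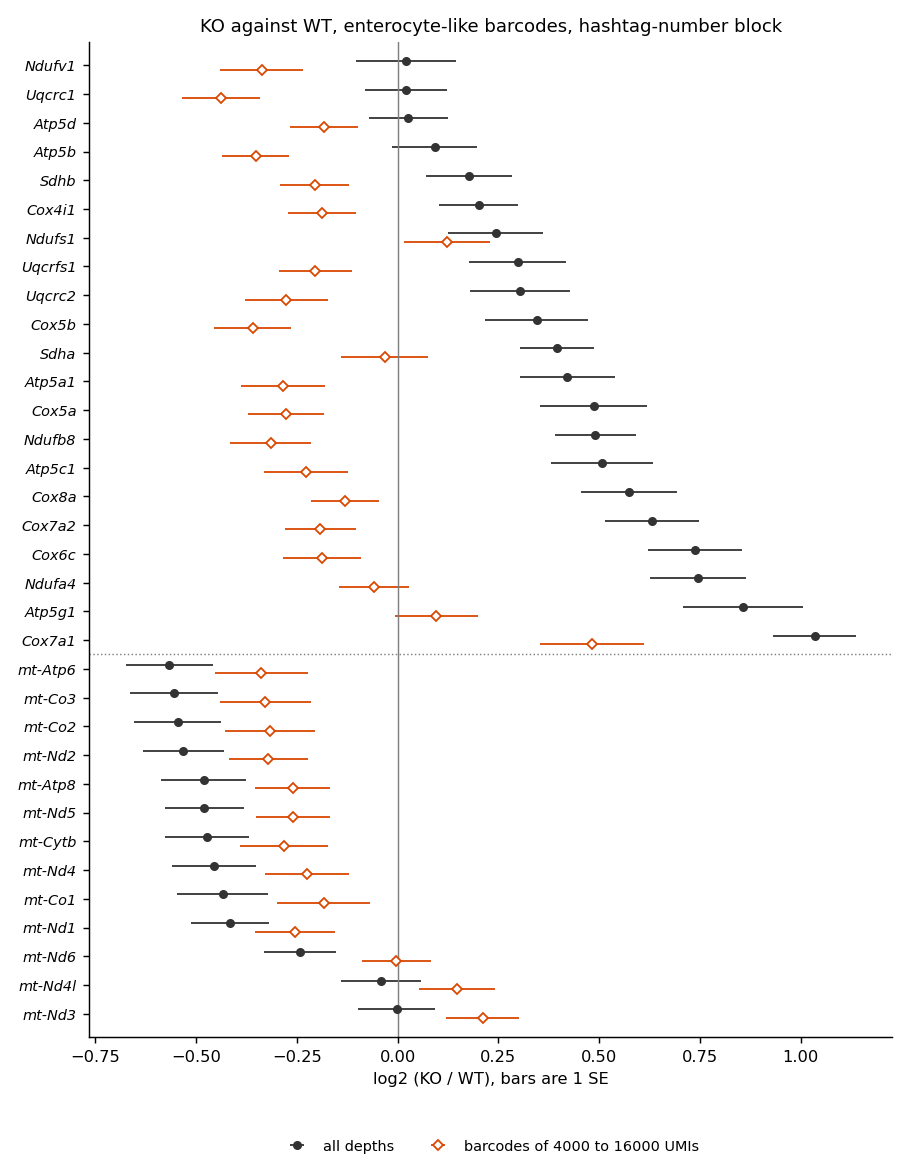
Fitted log2 difference, KO against WT, of the 34 members in enterocyte-like barcodes with the hashtag number as a replicate block (bars are 1 SE), over all depths and within 4000 to 16000 UMIs. Over all depths 11 nuclear members were called higher and 10 mitochondrial members lower, and within the window Cox7a1 was called higher and Cox5b, Uqcrc1 and Atp5b lower.

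The composition of mitochondrial UMIs had its 2 largest ratios between genotypes at neighbouring genes of complex I. mt-Nd3 made up 0.984%, 1.02% and 1.02% of mitochondrial UMIs in the WT mice against 1.39%, 1.53% and 1.38% in the KO mice over all barcodes. Its neighbour mt-Nd4l made up 0.752%, 0.827% and 0.873% in WT against 1.10%, 1.16% and 1.13% in the KO mice. Every KO mouse was above every WT mouse for both genes, with ratios of the means of 1.42 and 1.38. These are shares of mitochondrial UMIs and not levels. Among all UMIs, scaled by edgeR, all 13 mitochondrial members had negative log2 differences over all barcodes, these genes included. Scaled by library totals, the differences were 0.17 for mt-Nd3 and 0.13 for mt-Nd4l. A larger share is therefore no measure of a higher level in KO. The exact two-sided permutation test over mice gave p = 0.1 for each, which is the smallest that 3 against 3 can give, and it was run for all 13 genes. KO2 was the highest KO mouse for both.

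The same difference was present in every subset examined. Most of these subsets overlap and all come from the same 2 libraries, so they are not separate checks. In enterocyte-like barcodes mt-Nd3 was at 0.978%, 1.01% and 1.02% against 1.38%, 1.48% and 1.38%, a ratio of 1.41, and in goblet-like barcodes the ratios were 1.40 for mt-Nd3 and 1.45 for mt-Nd4l. In the lower and the upper villus tercile the ratios were 1.42 and 1.37 for mt-Nd3. At most 25% and over 25% mitochondrial UMIs gave 1.46 and 1.39. Within 4000 to 16000 UMIs mt-Nd3 was at 0.957%, 0.968% and 1.001% in WT against 1.36%, 1.39% and 1.34% in the KO mice, a ratio of 1.40, and mt-Nd4l had a ratio of 1.33. The ratio for mt-Nd3 within the window was thus close to that over all depths, 1.42.

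Over all barcodes, 4 other mitochondrial members had ratios closer to 1, though the genotypes were also apart, and for the other 7 the genotypes overlapped. These 4 were not apart in every subset. In goblet-like barcodes the genotypes overlapped for mt-Nd4 (ratio 0.994), mt-Nd6 and mt-Co3. They also overlapped for mt-Co3 at most 25% mitochondrial UMIs and for mt-Atp6 over 25%. Of all genes over all barcodes, 3.58% were higher and 3.53% lower in all KO mice. Those are levels, so they are no direct background for shares of mitochondrial UMIs. mt-Nd4, which overlaps mt-Nd4l, made up 6.48%, 6.53% and 6.57% in WT against 6.71%, 6.70% and 6.72% in the KO mice, a ratio of 1.03. mt-Nd6 had a ratio of 1.19, from 0.0943%, 0.0826% and 0.0904% to 0.107%, 0.107% and 0.104%. mt-Atp6, the subunit of complex V through which protons pass, was at 18.1%, 18.5% and 18.0% in WT against 16.97%, 17.6% and 17.4% in the KO mice, a ratio of 0.951. mt-Co3 of complex IV was at 19.0%, 18.6% and 19.3% against 18.5%, 17.8% and 18.4%, a ratio of 0.962. Shares of a total are not independent, since larger shares of some genes leave less for the others, so these ratios are not separate results. Each genotype is 1 library, so genotype and library cannot be told apart for them.

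**Figure D5:**
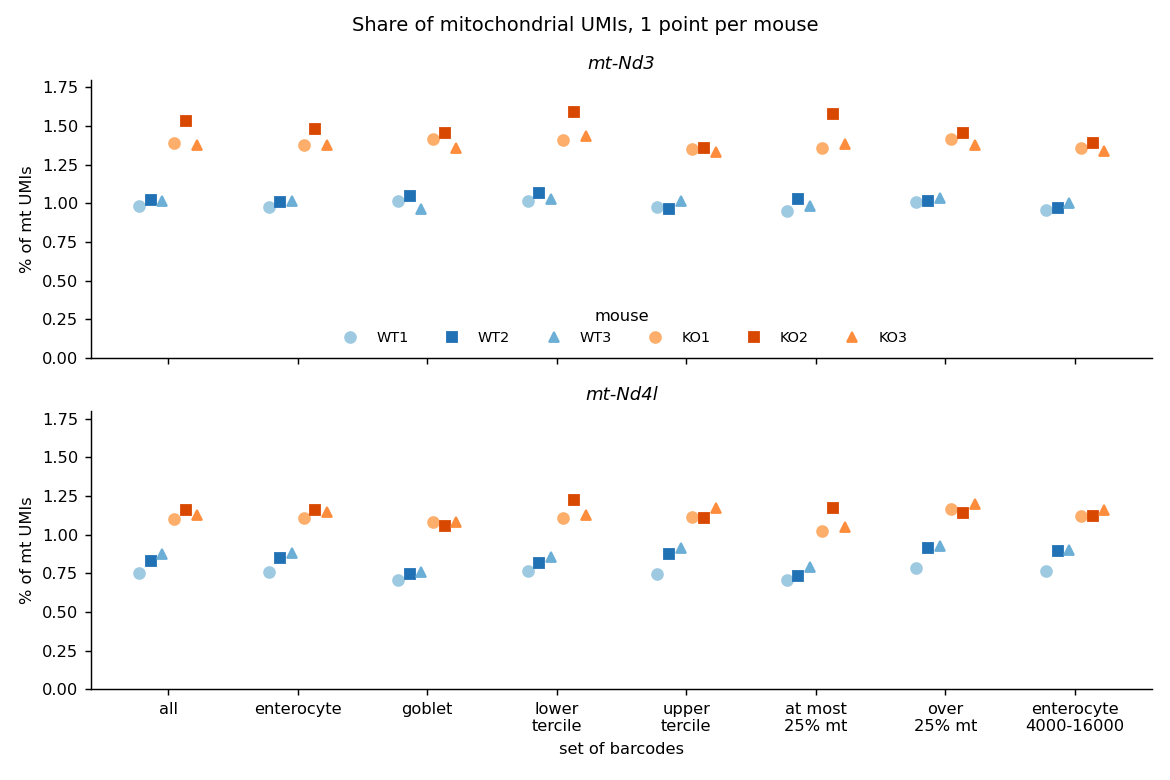
Share of mitochondrial UMIs taken by mt-Nd3 and mt-Nd4l (percent) in each mouse over 8 sets of barcodes, 1 point for each mouse. In all barcodes the WT mice sat at 0.984% to 1.02% for mt-Nd3 and the KO mice at 1.38% to 1.53%, and the groups are apart in each set shown.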

How the data were processed

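Per the submitters' processing notes, the authors made the deposited UMI counts per gene and barcode with Cell Ranger 7.0.1 on mm10 (GRCm38). Seurat 4.1.0 is named with no role, and the annotation release and any counting of introns or strand are not given in the sources used here. The labels name 2 experiments, and the second is not analysed here. From the deposited counts, barcodes with at least 1000 UMIs and 500 genes were kept, and Seurat 5.3.0 (HTODemux, quantile 0.99) assigned them to mice by hashtag, which left out 697 WT and 356 KO doublets and 4558 and 2029 barcodes without a hashtag. No other doublet caller was run. Scanpy 1.11.5 formed 25 clusters, named from marker genes, from the barcodes with and without a hashtag but not the doublets. Counts were summed by mouse and tested with edgeR 4.0.16 (quasi-likelihood, TMM scaling, filterByExpr, Benjamini-Hochberg adjustment over all genes tested, called under 0.05). All 34 members passed the filter in each comparison they entered. SE is the log2 fold change divided by the root of F. DESeq2 1.42.0, other scalings, filters, gates and left-out mice were alternatives. Fits were also run on simulated counts that gave all mice the same mean apart from planted changes. These runs used no hashtag block. They therefore do not check the blocked fits or the effect of mice that stand apart, such as those of hashtag 2.

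The villus score used cells thinned to 1000 nuclear UMIs, and the members were counted unthinned. Every member could be named, with the top 3 genes of other lists by p in a comparison. The members and lists were chosen with earlier results of these data known. Hashtags mark separate mice by the labels. Same-numbered mice of the 2 genotypes had correlated deviations from their group means (0.44, 0.85 and 0.63 over all barcodes, 0.65, 0.87 and 0.67 in enterocyte-like ones), but some other pairs did too (WT3 with KO1, 0.64 over all barcodes). With pooled libraries, genotype and pool cannot be told apart.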

Additional observations from a re-analysis of the deposited data

Results flagged for a closer look

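Barcodes to which no hashtag was assigned entered none of the sums tested above. They did enter the levels and shares of whole libraries, the clustering, the naming of classes and the gene means that scale the villus score. Mitochondrial UMIs took a larger share of them than of assigned barcodes in both libraries. In the WT library the 4558 barcodes without a hashtag had a median mitochondrial share of 23.6%, against 21.4% in assigned barcodes. In the KO library the 2029 barcodes without a hashtag had a median of 27.8%, against 17.4%. Their median depth was lower, 5316 against 8961 UMIs in WT and 7142 against 9809 in KO. The nuclear members took 6912 nuclear CPM (UMIs per 1000000 nuclear UMIs) in them against 7999 in WT, and 9783 against 11633 in KO. There is 1 library per genotype, so these differences have no replicate check.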

How the results depend on the processing

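The fall of the 21 nuclear members along the villus kept its direction under every alternative run, and the genotype and gate comparisons did not. Settings within 4000 to 16000 UMIs, without hashtag 2, without cluster 17, of enterocyte-like barcodes in the gate, and those joining the block to another choice were chosen after seeing the data. Of the values of single genes, 1241 kept their direction and call, 126 turned, 66 came to pass the test and 44 no longer did, and of the counts and medians 275 moved little and 36 moved; the causes were not tested. Depth limits the precision of scarce members such as Cox7a1, at 20.9 to 41.1 nuclear CPM in the window.

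Between genotypes over all barcodes, 56 genes were called by DESeq2, 747 with the hashtag number as a replicate block, 69 without hashtag 2, 152 with the block at most 25% mitochondrial UMIs and 746 with the block on nuclear genes, and 1 nuclear member was called in each of the 3 blocked fits. Log2 differences turned to Atp5d 0.15, Ndufv1 0.15, mt-Nd4l 0.13 and mt-Nd3 0.17 with library totals, to Atp5d 0.0032, Ndufv1 0.012, mt-Nd4l 0.10 and mt-Nd3 0.12 at most 25% mitochondrial UMIs, to mt-Nd4l 0.14 and mt-Nd3 0.15 with the block added, to Ndufv1 0.024 with a hashtag ratio of 3, to Uqcrc1 -0.022 with DESeq2, Uqcrc1 -0.028 with the block, Uqcrc1 -0.029 with the block on nuclear genes and Uqcrc1 -0.12 without hashtag 2. Leaving out 1 mouse at a time moved Atp5d from -0.24 to 0.068, Ndufv1 from -0.52 to 0.31, Uqcrc1 from -0.40 to 0.28, Atp5g1 from -0.69 to 1.82, mt-Nd4l from -0.31 to 0.18 and mt-Nd3 from -0.27 to 0.16.

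In enterocyte-like barcodes, 87 genes were called by DESeq2, 16 without a filter on low counts, 2251 with the block, 1302 without hashtag 2, 943 in the window, 1235 in the window with the block, 1534 with the block at most 25% mitochondrial UMIs and 2227 with the block on nuclear genes. Nuclear members called numbered 11 with the block, 6 without hashtag 2, 7 with the block at most 25% mitochondrial UMIs, 4 in the window with the block and 11 with the block on nuclear genes, and mitochondrial members 10, 5 and 2 in the first 3 of these. In the window differences turned to Atp5d -0.19, Uqcrc1 -0.45, Ndufv1 -0.34, Ndufa4 -0.061, mt-Nd4l 0.14, Atp5c1 -0.23, Cox5a -0.27, Cox7a2 -0.19, Sdha -0.045, Cox6c -0.19, Atp5a1 -0.30, Cox8a -0.13 and Ndufb8 -0.33, and with the block there to Atp5d -0.18, Uqcrc1 -0.44, Ndufv1 -0.34, Ndufa4 -0.059, mt-Nd4l 0.15, Atp5c1 -0.23, Cox5a -0.28, Cox7a2 -0.19, Sdha -0.032, Cox6c -0.19, Atp5a1 -0.28, Cox8a -0.13 and Ndufb8 -0.32. They turned to Atp5d -0.039, Uqcrc1 -0.033, Ndufv1 -0.11 and mt-Nd4l 0.014 without hashtag 2, to mt-Nd4l 0.16 with library totals, mt-Nd4l 0.11 at most 25% mitochondrial UMIs, mt-Nd4l 0.13 there with the block, mt-Nd4l 0.12 at clustering resolution 2, mt-Nd3 -0.0051 with DESeq2 and mt-Nd3 -0.0029 with the block. Leaving out 1 mouse at a time moved Atp5d from -0.17 to 0.19, Uqcrc1 from -0.37 to 0.40, Ndufv1 from -0.45 to 0.42, Ndufa4 from -0.16 to 1.67, Atp5g1 from -0.83 to 2.59, mt-Nd4l from -0.18 to 0.14, mt-Nd3 from -0.14 to 0.16, Atp5c1 from -0.33 to 1.37, Cox5a from -0.42 to 1.39, Cox7a2 from -0.044 to 1.33, Sdha from -0.26 to 1.04, Atp5a1 from -0.48 to 1.34, Cox8a from -0.14 to 1.30 and Ndufb8 from -0.32 to 1.31.

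In the gate, 3051 genes were called in enterocyte-like barcodes and 3903 in the window, where the nuclear median was 0.28 and differences turned to Atp5g1 0.27, Ndufa4 0.073, Cox5b 0.018, Atp5c1 0.29, Sdhb 0.67, Uqcrc2 0.43, Cox4i1 0.18, Cox7a2 0.080, Atp5b 0.50, Uqcrfs1 0.47, Sdha 0.28, Cox6c 0.059, Atp5a1 0.45, Ndufv1 0.40 and Ndufb8 0.30. They turned to Ndufs1 -0.26, Uqcrc1 -0.25 and Atp5d -0.074 in enterocyte-like barcodes, Ndufs1 -0.081 and Uqcrc1 -0.042 without a filter, Uqcrc1 -0.10 with a gate at 15% and Sdhb 0.13 and Ndufv1 0.034 without hashtag 2, and leaving out 1 mouse moved Ndufs1 from -0.057 to 0.16 and Uqcrc1 from -0.073 to 0.25. Along the villus the window gave 3625 genes, 2 mitochondrial members and medians of -0.52 and -0.13, with mt-Nd1 -0.24, mt-Cytb -0.15, mt-Nd3 -0.15, mt-Co1 -0.032, mt-Atp8 -0.024, mt-Nd2 -0.17, mt-Co2 -0.11, mt-Atp6 -0.14, mt-Co3 -0.11, mt-Nd4l -0.13, mt-Nd4 -0.13 and mt-Nd5 -0.071. Library totals gave 3 mitochondrial members, and leaving out 1 mouse 4 to 12. At most 25% mitochondrial UMIs left a mitochondrial share of 9.72% in WT and 8.35% in KO.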
